A study of Mus musculus with 8 samples.

Results

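The aminoacyl-tRNA synthetases were taken from 8 mouse heart transcriptomes by gene symbol, as every symbol built like those of this enzyme family. The rule found 38 genes among the 24411 symbols of the count tables, of which 37 are described. They were divided into 20 cytosolic enzymes or subunits and 16 mitochondrial enzymes, whose symbols end in 2. Tarsl2 also ends in 2 but encodes a paralog of the cytosolic threonyl enzyme, so it is given on its own. The family was put forward with results of the same genotype comparison known. Its values in that comparison are therefore a description, and no p-value is given for a member. A member is called higher or lower where its adjusted p was under 0.05 in the fit across all genes.

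Each library was polyadenylated RNA of 1 heart from a C57BL/6 mouse, taken 1 week after transverse aortic constriction, a narrowing of the aorta that raises the pressure load on the heart. The control group was 4 MerCreMer mice, which carry a Cre recombinase that is inactive until a ligand is given. The YY1 KO group was 4 mice with a cardiac-specific knockout of the transcription factor Yin-Yang 1, and the tissue sequenced holds other cell types besides cardiomyocytes. Both groups had the operation, and no unoperated heart was analysed here. The sources used here do not give age, the inducing ligand or the details of the alleles.

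Aminoacyl-tRNA synthetases join each amino acid to its transfer RNA, the step that supplies ribosomes with charged tRNA. Most cells use separate sets of these enzymes for the cytosol and for mitochondria, all encoded in the nucleus. Lysyl- and glycyl-tRNA synthetase are exceptions, since Kars and Gars each encode the enzyme of both compartments. Uncharged tRNA activates the kinase GCN2, which phosphorylates eIF2alpha, raises translation of the transcription factor ATF4, and so induces many cytosolic synthetase genes. In the heart the mitochondrial enzymes serve the synthesis of the respiratory chain subunits that mitochondrial DNA encodes.

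The libraries held 14582605 to 16000455 reads assigned to genes. Yy1 was at 21.04 ± 2.55 CPM (gene counts scaled to library size and composition) in YY1 KO hearts and 36.1 ± 1.58 CPM in controls (mean ± SD, n = 4 hearts per group here and throughout). Its log2 fold change was -0.78 ± 0.10 (SE; edgeR adjusted p = 0.000769). The design text describes male mice, but 4 hearts, 2 of each genotype, had 138 to 219 CPM of Xist and at most 0.134 CPM of Y-linked reads. All 6 markers of cardiomyocytes were detected, and their summed level was 49988 to 74019 CPM in controls and 38460 to 62634 CPM in knockouts. The summed endothelial markers did not overlap between groups, at 1163 to 1556 CPM in controls and 873 to 1010.1 CPM in knockouts, with 4 of the 6 markers called lower and 1 higher. Summed levels of fibroblast (872 to 2244 against 1259 to 2766), smooth muscle and pericyte (683 to 864 against 493 to 731), macrophage (163 to 258 against 185 to 238) and T and B cell markers (3.03 to 5.43 against 1.36 to 3.49) overlapped. Among these, 1 of 6 fibroblast markers was called higher, and 2 of 6 smooth muscle and pericyte markers and 1 of 2 tested T and B cell markers were called lower. The part of cell composition in the values below was not tested, and in whole heart fewer cells of a type and less RNA per cell cannot be told apart.

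Cytosolic synthetase transcripts were higher in YY1 KO hearts and mitochondrial ones were mixed. Of the 20 cytosolic members, 14 were called higher, 0 lower and 6 neither. Of the 16 mitochondrial members described, 3 were called higher and 4 lower, and Tarsl2 was lower. The edgeR quasi-likelihood fit called 38.9% of all 13506 genes tested, 21.6% higher and 17.3% lower. All 37 members passed the filter on low counts, with 41 to 6741 reads per heart. The 0 cytosolic decreases compare with 1 at an unadjusted p under 0.05 and with 1 by DESeq2. The median log2 fold change was 0.47 for cytosolic and 0.14 for mitochondrial members, beside 0.013 for all genes tested. Without YY1 KO 4 the mitochondrial median was 0.044. The groups did not overlap for 15 cytosolic and 6 mitochondrial members, beside 38.3% of all genes tested (21.8% with the knockouts higher and 16.5% lower). Of those, 15 cytosolic and 2 mitochondrial members were higher in every knockout than in every control, and 4 mitochondrial members were lower.

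Direction was the same in the hearts with and without Xist reads for each of the 22 called members. Those calls were made on the same hearts, so this agreement is largely built in and is no independent check. Within the 4 hearts with Y-linked reads (2 against 2), 10 cytosolic members were called higher and 2 lower, and 1 mitochondrial member was higher and 3 lower, where 24.5% of all genes were called (12.7% higher and 11.8% lower). Within the 4 hearts with Xist reads the edgeR test called 0 of 13671 genes, with 3451 genes and 17 members at an unadjusted p under 0.05. The interaction of genotype with these reads passed the threshold for 0 of all genes in the edgeR fit, members included (2 members at an unadjusted p under 0.05).

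Summed over the 20 genes, cytosolic synthetases made up 1575, 1563, 1694 and 1599 CPM in control hearts 1 to 4. The same sum was 2764, 2734, 2774 and 2669.9 CPM in YY1 KO hearts 1 to 4. Every knockout heart lay above every control, and the 4 knockouts lay close together. The sum over the 16 mitochondrial enzymes was 759, 759.7, 608 and 649 CPM in control hearts 1 to 4 and 879, 788, 843 and 853 CPM in knockouts. Those groups did not overlap either, although the gap between controls 1 and 2 and YY1 KO 2 was small. Lars2 and Iars2, both with higher means in knockouts, had the highest mitochondrial CPM. From controls to knockouts the mean of Lars2 alone went from 147 to 261 CPM and that of Iars2 from 138 to 178 CPM. The mean of the whole sum went from 694 to 841 CPM. The separation of the sums therefore does not describe the mitochondrial set as a whole. With each gene weighted equally, the mean log2 difference from the control mean was 0.60, 0.51, 0.54 and 0.58 for cytosolic members in YY1 KO 1 to 4. For mitochondrial members it was -0.069, -0.12, -0.061 and 0.0024 in YY1 KO 1 to 4, inside the range of -0.17 to 0.18 that the controls spanned.

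**Figure D1:**
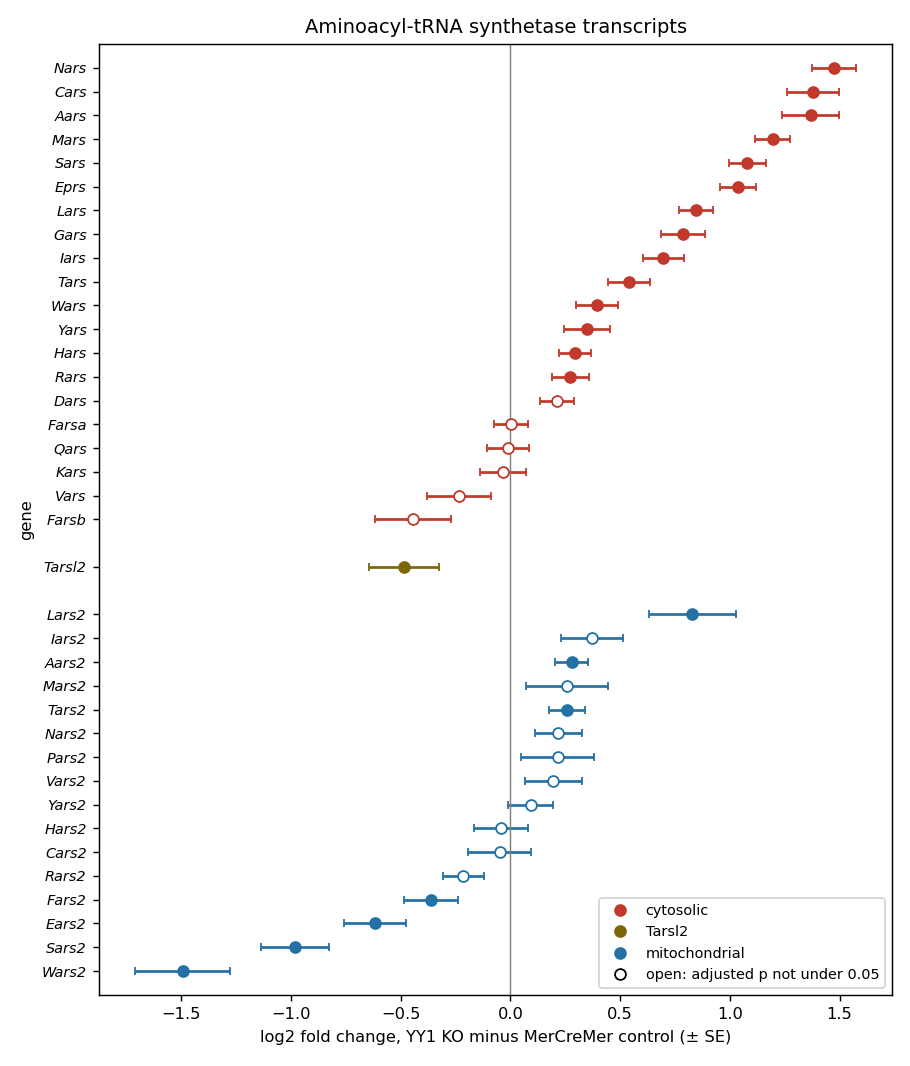
Log2 fold change (YY1 KO minus MerCreMer control, horizontal axis, ± SE) of 37 aminoacyl-tRNA synthetase genes, 4 hearts per group, grouped by compartment. Filled points passed an adjusted p of 0.05 in the all-gene fit, 14 cytosolic points on the right of 0 and 7 mitochondrial points on both sides.

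The 6 cytosolic genes that rose by more than 1 on the log2 scale were those for asparagine, cysteine, alanine, methionine, serine and glutamate with proline. Nars, asparaginyl-tRNA synthetase (mm10 chromosome 18, 64499647 to 64516652, minus strand), stood at 136, 151, 157 and 144 CPM in control hearts 1 to 4 and 380.0, 458, 426 and 371 CPM in YY1 KO hearts 1 to 4. Its log2 fold change was 1.47 ± 0.10, a level 2.78 times that of controls. Cars, cysteinyl-tRNA synthetase (mm10 chromosome 7, 143557230 to 143600090, minus strand), stood at 24.8, 28.3, 33.5 and 35.0 CPM in control hearts 1 to 4 and 86.9, 72.6, 80.0 and 76.7 CPM in YY1 KO hearts 1 to 4. For both genes the lowest knockout heart was more than 2 times the highest control.

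Aars, alanyl-tRNA synthetase (mm10 chromosome 8, 111033144 to 111057664, plus strand), stood at 108, 104, 139 and 117 CPM in control hearts 1 to 4 and 306, 303, 348 and 254 CPM in YY1 KO hearts 1 to 4. It rose by 1.37 ± 0.13 on the log2 scale, and YY1 KO 4 was the lowest of the knockouts. Mars, methionyl-tRNA synthetase (mm10 chromosome 10, 127296221 to 127311786, minus strand), stood at 64.3, 57.9, 62.8 and 66.1 CPM in control hearts 1 to 4 and 157, 141, 139 and 137 CPM in YY1 KO hearts 1 to 4. Its log2 fold change was 1.19 ± 0.082. No knockout heart overlapped with a control for either gene.

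Sars, seryl-tRNA synthetase (mm10 chromosome 3, 108424865 to 108445209, minus strand), which also charges the tRNA for selenocysteine, stood at 99.9, 106, 121 and 104 CPM in control hearts 1 to 4 and 226, 222, 235 and 229 CPM in YY1 KO hearts 1 to 4. Eprs, which encodes the fused glutamyl- and prolyl-tRNA synthetase (mm10 chromosome 1, 185363044 to 185428360, plus strand), stood at 149, 155, 169 and 160.1 CPM in control hearts 1 to 4 and 320.3, 340.4, 329 and 308 CPM in YY1 KO hearts 1 to 4. Their log2 fold changes were 1.08 ± 0.085 and 1.04 ± 0.082. Both genes had tight groups, with knockout SDs of 5.25 and 13.5 CPM. Lars, leucyl-tRNA synthetase (mm10 chromosome 18, 42202298 to 42262194, minus strand), stood at 88.2, 79.5, 84.1 and 77.1 CPM in control hearts 1 to 4 and 154, 142, 150.4 and 145 CPM in YY1 KO hearts 1 to 4, a log2 fold change of 0.85 ± 0.076. No heart of 1 group fell within the range of the other for these 3 genes.

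The other cytosolic increases were smaller. Gars, for glycine, rose from 94.6 ± 8.83 to 163 ± 14.7 CPM (log2 fold change 0.79 ± 0.10) and Iars, for isoleucine, by 0.70 ± 0.094. Tars, for threonine, rose by 0.54 ± 0.095, Wars, for tryptophan, by 0.39 ± 0.094, and Yars, for tyrosine, by 0.35 ± 0.10. Hars, for histidine (0.29 ± 0.073), and Rars, for arginine (0.27 ± 0.084), had the smallest called changes. The Rars call was lost without control 1, 2 or 4 or YY1 KO 1, 3 or 4, as was that of Yars, while the other 12 cytosolic calls held without any 1 of the 8 hearts. Wars lies on chromosome 12 (108860030 to 108894174), 39.9 kb from the end of Yy1 itself (108792973 to 108820148). Of other genes near Yy1, Wdr25 was called higher (0.82 ± 0.12). Evl (-0.93 ± 0.22) and Degs2 (-1.22 ± 0.23) were called lower, and Slc25a29, Slc25a47 and Begain were not called. Whether the position of Wars bears on its value was not tested.

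The 6 cytosolic members that were not called covered aspartate, glutamine, lysine, valine and phenylalanine. Kars, the lysyl enzyme of both compartments, went from 131 ± 16.6 to 128 ± 7.41 CPM (log2 fold change -0.033 ± 0.10), and Qars, for glutamine, from 81.1 ± 7.28 to 80.5 ± 7.13 CPM (-0.010 ± 0.095). Dars, for aspartate, was at 0.21 ± 0.078. Its groups did not overlap, with 94.3, 94.5, 88.9 and 82.3 CPM in controls against 106, 97.9, 105 and 108 CPM in knockouts.

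The phenylalanyl enzyme is built from alpha and beta subunits, encoded by Farsa and Farsb. Farsa was at 26.1, 25.2, 26.9 and 26.3 CPM in control hearts 1 to 4 and 26.9, 26.0, 24.4 and 27.4 CPM in YY1 KO hearts 1 to 4, the narrowest spread in controls of any member by SD per mean. Farsb, the other subunit, stood at 48.0, 42.4, 43.1 and 46.4 CPM in control hearts 1 to 4 and 35.9, 23.97, 28.00 and 44.4 CPM in YY1 KO hearts 1 to 4 (log2 fold change -0.44 ± 0.17). Knockouts 1 to 3 lay below all controls, whereas YY1 KO 4 lay inside their range. Without YY1 KO 4 its log2 fold change was -0.62, and it was then called lower, the 1 cytosolic decrease in that fit. Vars, for valine, stood at 59.1, 68.6, 82.2 and 71.7 CPM in control hearts 1 to 4 and 60.0, 55.3, 48.8 and 75.1 CPM in YY1 KO hearts 1 to 4, and its groups overlapped (-0.24 ± 0.15).

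**Figure D2:**
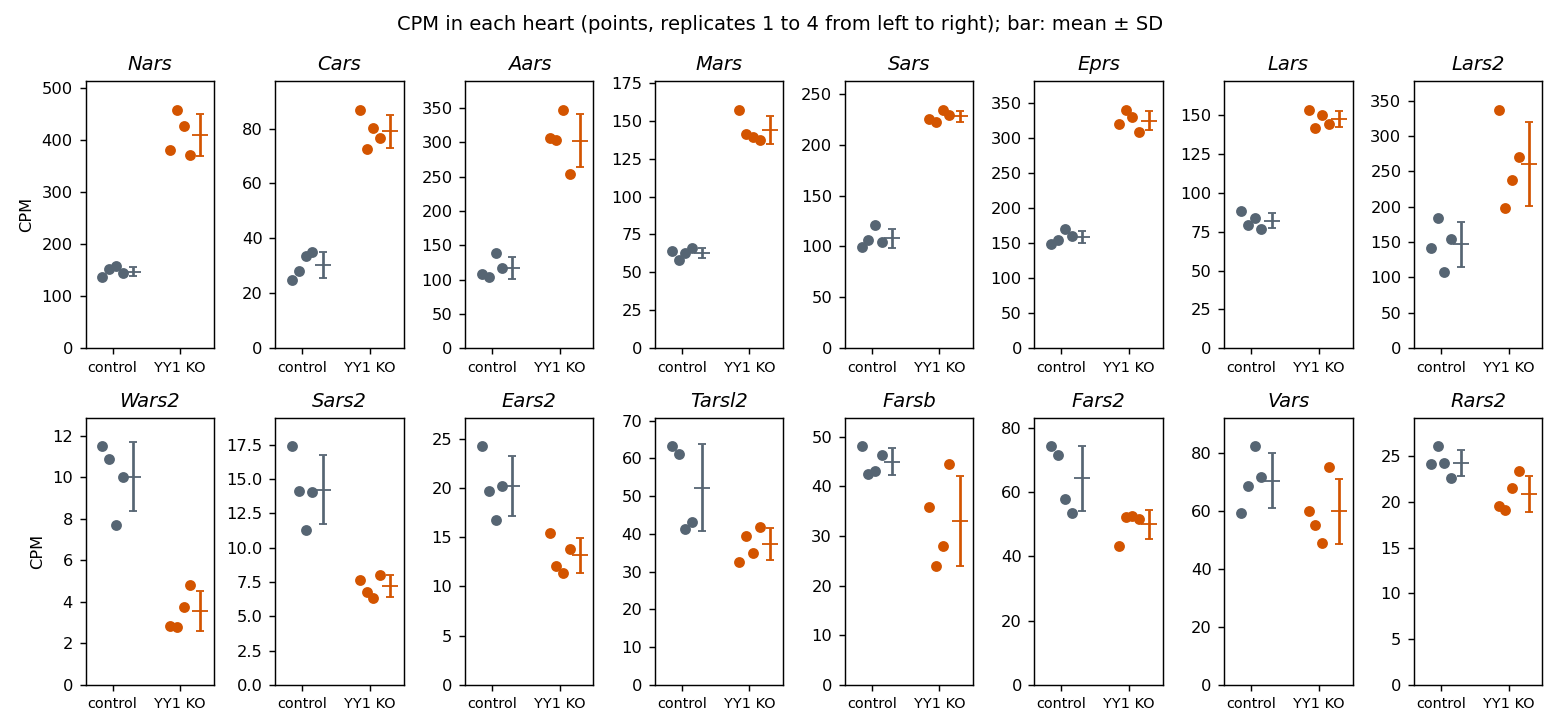
CPM (vertical axes, each from 0) of 16 members in each of the 4 control and 4 YY1 KO hearts, as points, with mean ± SD beside them. The 8 genes of the upper row have the largest positive log2 fold changes, with Nars from 136 to 157 CPM in controls and 371 to 458 CPM in knockouts; the lower row holds the 8 with the largest negative values.

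Among mitochondrial enzymes, those for tryptophan and serine fell most. Wars2 (mm10 chromosome 3, 99141068 to 99239186, plus strand) stood at 11.5, 10.9, 7.71 and 9.99 CPM in control hearts 1 to 4 and 2.85, 2.78, 3.77 and 4.80 CPM in YY1 KO hearts 1 to 4. Its knockout mean was 35.4% of the control mean (log2 fold change -1.49 ± 0.22). Sars2 (mm10 chromosome 7, 28741992 to 28753871, plus strand), the mitochondrial seryl enzyme, stood at 17.4, 14.2, 11.3 and 14.1 CPM in control hearts 1 to 4 and 7.66, 6.79, 6.30 and 8.04 CPM in YY1 KO hearts 1 to 4, or 50.5% of the control mean (-0.98 ± 0.15). In both genes the highest knockout heart was below the lowest control, which was control 3.

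Ears2, which charges mitochondrial tRNA for glutamate (mm10 chromosome 7, 122037213 to 122067263, minus strand), stood at 24.2, 19.7, 16.7 and 20.2 CPM in control hearts 1 to 4 and 15.4, 12.02, 11.4 and 13.8 CPM in YY1 KO hearts 1 to 4. It fell by 0.62 ± 0.14 on the log2 scale, and its groups did not overlap. Fars2, the single-chain phenylalanyl enzyme of mitochondria (mm10 chromosome 13, 36117412 to 36726280, plus strand), stood at 74.3, 71.6, 57.8 and 53.6 CPM in control hearts 1 to 4 and 43.3, 52.2, 52.6 and 51.7 CPM in YY1 KO hearts 1 to 4 (-0.36 ± 0.12). Its knockouts were all below the controls, but control 4 and YY1 KO 3 differed by little. The Fars2 call was lost without control 1 or 2 or any 1 of the 4 knockouts, while the other 3 mitochondrial calls of a decrease held without any 1 heart.

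Lars2, the mitochondrial leucyl enzyme (mm10 chromosome 9, 123366927 to 123462666, plus strand), moved against those decreases. It stood at 142, 183, 108 and 154 CPM in control hearts 1 to 4 and 337, 198, 237 and 270.0 CPM in YY1 KO hearts 1 to 4 (log2 fold change 0.83 ± 0.20). Every knockout was above every control, but the knockouts were spread, with YY1 KO 1 high and YY1 KO 2 near control 2. Reads on the strand opposite Lars2 numbered 19, 28, 26 and 12 in control hearts 1 to 4. They numbered 9, 2, 17 and 13 in YY1 KO hearts 1 to 4, so they did not rise with its counts. The opposite-strand share of Lars2, 0.498%, was the lowest of any member, and with stranded counts its log2 fold change was 0.85. The origin of the added Lars2 reads was not tested. Aars2, for alanine, rose by 0.28 ± 0.075 and Tars2, for threonine, by 0.26 ± 0.082. The Aars2 call was lost without control 2 or 4 or YY1 KO 3, and that of Tars2 without control 2, 3 or 4 or YY1 KO 1, 3 or 4. The count of mitochondrial increases was therefore 1 without control 2, control 4 or YY1 KO 3.

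The 9 mitochondrial enzymes that were not called had log2 fold changes from -0.21 to 0.37. Iars2, for isoleucine, stood at 153, 149, 126 and 123 CPM in control hearts 1 to 4 and 146, 209, 202 and 155 CPM in YY1 KO hearts 1 to 4. YY1 KO 2 and 3, the knockouts with Y-linked reads, were well above all controls, YY1 KO 4 was just above them, and YY1 KO 1 lay inside their range. The others were Mars2 for methionine (0.26), Nars2 for asparagine (0.22), Pars2 for proline (0.22), Vars2 for valine (0.19), Yars2 for tyrosine (0.092), Hars2 for histidine (-0.041) and Cars2 for cysteine (-0.050), all on the log2 scale. Rars2, for arginine (mm10 chromosome 4, 34614957 to 34660167, plus strand), stood at 24.1, 26.1, 24.2 and 22.6 CPM in control hearts 1 to 4 and 19.6, 19.1, 21.5 and 23.4 CPM in YY1 KO hearts 1 to 4 (-0.21 ± 0.094). YY1 KO 1 to 3 lay below all controls and YY1 KO 4 lay inside their range.

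Tarsl2 (mm10 chromosome 7, 65644898 to 65692091, plus strand), the paralog of the cytosolic threonyl enzyme, stood at 63.2, 61.0, 41.2 and 43.3 CPM in control hearts 1 to 4 and 32.5, 39.5, 35.0 and 41.9 CPM in YY1 KO hearts 1 to 4. It was called lower (-0.49 ± 0.16), opposite in sign to Tars, although the groups overlapped, with controls 1 and 2 high and controls 3 and 4 near YY1 KO 4. The call was lost without control 1 or 2 or YY1 KO 1, 2 or 3.

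Set side by side by amino acid, 17 pairs of a cytosolic and a mitochondrial member were formed, counting Eprs with both Ears2 and Pars2 and Fars2 with both Farsa and Farsb. In 15 of the 17 the log2 fold change of the cytosolic member was above that of its mitochondrial counterpart. The exceptions were valine and the Farsb pair. In 3 pairs the members were called in opposite directions, Sars with Sars2, Eprs with Ears2 and Wars with Wars2. The difference within a pair was 2.06 for serine, 1.89 for tryptophan and 1.65 for glutamate on the log2 scale. For leucine, Lars and Lars2 were at 0.85 and 0.83. In 8 pairs the cytosolic member was called higher and the mitochondrial member was not called. Among all genes tested, 21.6% were called higher and 17.3% lower. The pair counts partly restate those of the compartments, since 14 of the 20 cytosolic members were called higher.

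For tryptophan the cytosolic member Wars stood at 58.7, 57.2, 59.0 and 63.0 CPM in control hearts 1 to 4 and 76.8, 81.6, 87.8 and 66.6 CPM in YY1 KO hearts 1 to 4. Every knockout was above every control, so that Wars and Wars2 had moved apart in each of the 4 knockout hearts relative to all controls. Pairs share the 8 libraries, so they are not independent of each other.

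**Figure D3:**
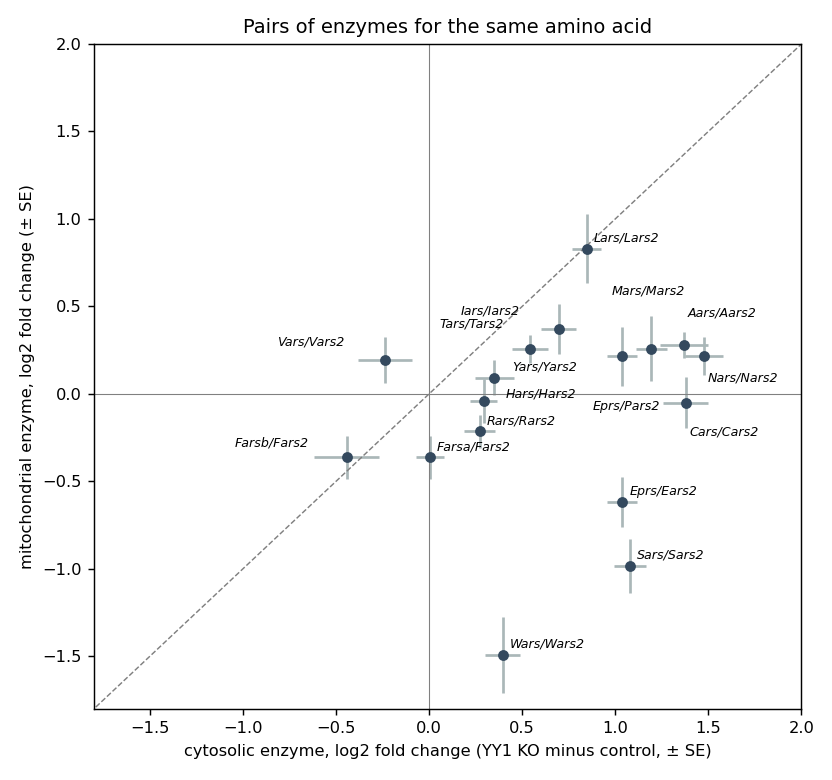
Log2 fold change (YY1 KO minus control, ± SE) of the cytosolic (horizontal) against the mitochondrial (vertical) enzyme for the same amino acid, 1 point for each of 17 pairs, with a dashed line of equal change. Points lie below the line in 15 pairs, and Sars with Sars2, Eprs with Ears2 and Wars with Wars2 lie at the lower right.

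Synthetases fall into classes I and II by the fold of the catalytic domain, and a group of cytosolic enzymes is held in the multi-synthetase complex. Of 9 cytosolic class I genes 7 were called higher (median log2 fold change 0.39), and of 10 in class II 6 were (median 0.42). Eprs, which belongs to both classes and was called higher, was counted in neither. Of 8 genes of the complex (Dars, Eprs, Iars, Kars, Lars, Mars, Qars and Rars) 5 were called higher, with a median of 0.48. Outside the complex 9 of 12 were, with a median of 0.47. The counts and medians thus lay close together for either division, and no test was made between these lists. Both directions occurred in mitochondrial class I (1 higher and 2 lower of 9) and class II (2 higher and 2 lower of 7). Beside all the counts of this paragraph, 21.6% of all genes tested were called higher and 17.3% lower.

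The promoter sequences were searched for the letters of the response element to which ATF4 binds with C/EBP partners (TGATGNAA) and for those of the YY1 element (AANATGGC), on both strands, where N is any base. A member's promoter was taken from RefSeq (GRCm38.p6, the mm10 build) as 250 bases before to 50 after the transcription start. RefSeq starts can differ from the gene positions given above, which are from GENCODE. For Aars the whole promoter window lies inside the gene as bounded there. The table held 28 of the 37 members (13 cytosolic, 14 mitochondrial and Tarsl2), and Cars, Hars, Hars2, Lars, Nars, Pars2, Rars, Vars and Wars had no entry. TGATGNAA occurred in the promoters of 5 of 13 cytosolic genes and of 0 of 14 mitochondrial genes, beside 3.97% of all 32851 promoters of this length. A match is a description of letters and not a measured binding site, and no member's promoter held both.

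The 5 cytosolic genes with the letters were Aars, Gars, Iars, Tars and Yars. All 5 were called higher (median log2 fold change 0.70). Of the 8 cytosolic genes without the letters 3 were called higher, Eprs, Mars and Sars (median of the 8 genes 0.11). Over all genes tested 21.6% were called higher. Eprs, Mars and Sars each rose by more than 1 on the log2 scale without a match. Whether the letters bear on the values was not tested. The 7 cytosolic genes with no promoter entry, 6 of them called higher, include the 2 largest increases, Nars and Cars, so these counts cover only part of the cytosolic members. Each line gives a window of 40 bases, 5′ to 3′ along the gene, with the match in capitals; Aars had 2 matches, 112 bases before and 9 after the start. In Yars the letters stand on the gene's own strand, and in the other 4 genes on the opposite strand, so that they read there as the reverse complement.
Aars (chr8:111033714-111033753, plus strand): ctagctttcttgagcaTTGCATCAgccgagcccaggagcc
Aars (chr8:111033835-111033874, plus strand): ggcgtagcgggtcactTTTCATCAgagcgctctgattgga
Gars (chr6:55037955-55037994, plus strand): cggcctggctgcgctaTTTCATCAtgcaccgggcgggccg
Iars (chr13:49682121-49682160, plus strand): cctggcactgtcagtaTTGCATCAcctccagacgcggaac
Tars (chr15:11399650-11399689, minus strand): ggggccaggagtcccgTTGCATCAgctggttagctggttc
Yars (chr4:129189890-129189929, plus strand): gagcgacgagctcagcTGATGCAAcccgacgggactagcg

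The whole promoter of Aars, whose log2 fold change was the largest of these 5, is given for the context of both matches (capitals).
Aars (chr8:111033592-111033891, plus strand): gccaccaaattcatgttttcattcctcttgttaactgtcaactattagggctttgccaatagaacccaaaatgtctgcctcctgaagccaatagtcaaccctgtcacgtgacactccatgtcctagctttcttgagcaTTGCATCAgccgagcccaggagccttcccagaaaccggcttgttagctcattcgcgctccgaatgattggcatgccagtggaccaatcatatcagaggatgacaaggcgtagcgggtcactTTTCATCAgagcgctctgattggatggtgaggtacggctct

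AANATGGC occurred in 6.05% of all promoters, in 4 of 14 mitochondrial genes and in 1 of 13 cytosolic genes, Farsa. The mitochondrial genes were Aars2, Lars2, Wars2 and Yars2, and in each the match lay 6 to 20 bases after a start site. Their windows are shown because they share the letters but not a direction: Wars2 was the member that fell most, Lars2 and Aars2 were called higher, and Yars2 was not called. Farsa, with matches 94 and 49 bases before the start, had a log2 fold change of 0.0028. Sars2, the other large decrease, had no match in the window.
Wars2 (chr3:99141080-99141119, plus strand): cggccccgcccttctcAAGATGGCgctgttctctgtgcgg
Lars2 (chr9:123366931-123366970, plus strand): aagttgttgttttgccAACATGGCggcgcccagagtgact
Aars2 (chr17:45506835-45506874, plus strand): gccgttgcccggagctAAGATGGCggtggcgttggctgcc
Yars2 (chr16:16302965-16303004, plus strand): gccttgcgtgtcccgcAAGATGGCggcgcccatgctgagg
Farsa (chr8:84856876-84856915, plus strand): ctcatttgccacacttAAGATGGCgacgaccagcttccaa
Farsa (chr8:84856921-84856960, plus strand): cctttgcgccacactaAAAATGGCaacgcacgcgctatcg

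The promoter of Wars2 is given whole, with the match in capitals after the start site.
Wars2 (chr3:99140840-99141139, plus strand): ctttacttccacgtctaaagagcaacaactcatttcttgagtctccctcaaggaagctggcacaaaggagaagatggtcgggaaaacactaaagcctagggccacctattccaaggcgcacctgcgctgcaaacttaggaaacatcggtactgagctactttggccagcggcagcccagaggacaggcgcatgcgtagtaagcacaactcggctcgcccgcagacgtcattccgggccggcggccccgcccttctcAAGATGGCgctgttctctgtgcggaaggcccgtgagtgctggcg

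In control hearts alone, levels were compared between genes as CPM per kilobase of merged exon length. The median was 16.7, 15.5, 16.3 and 16.3 for the 20 cytosolic members in controls 1 to 4, and 7.91, 7.36, 6.59 and 6.71 for the 16 mitochondrial members. The cytosolic median was above the mitochondrial one in each control. Nars was the most abundant member at 33.8 ± 2.14 CPM per kilobase, followed by Gars (30.3 ± 2.83) and Kars (29.3 ± 3.72), and these 3 did not differ beyond their SDs. All of the 10 highest members on this scale were cytosolic. The lowest were Nars2 (2.59 ± 0.346), Pars2 (1.88 ± 0.120), Wars2 (1.68 ± 0.279) and Mars2 (1.16 ± 0.294), of which Pars2 and Wars2 did not differ beyond their SDs. Most neighbours in this order were as close, since the gap to the next lower member was larger than the sum of both SDs for Kars, Farsa, Ears2 and Nars2 only. Per kilobase of coding length the medians were 31.5 and 14.6 and Nars was again first, but Lars2, Fars2 and Iars2 ranked 5, 6 and 7, ahead of Gars.

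Genes that act around the synthetases were counted in 9 lists, whose members are not of the family and are given with their adjusted p. The lists too were chosen with earlier results of these data known, so these p-values are not independent support. For comparison, 21.6% of all genes tested were called higher and 17.3% lower, and no test was made of a list. Of the 3 scaffold genes of the multi-synthetase complex, Eef1e1 fell, with 13.4, 11.9, 14.97 and 14.3 CPM in control hearts 1 to 4 and 9.20, 4.41, 5.59 and 9.85 CPM in YY1 KO hearts 1 to 4 (-0.91 ± 0.24, edgeR adjusted p = 0.0176). That call was lost without YY1 KO 3 (adjusted p = 0.0549). Aimp1 (0.19 ± 0.088) and Aimp2 (0.16 ± 0.081) did not pass. Mitochondria lack a glutaminyl enzyme and make charged glutamine tRNA from the product of Ears2 with an amidotransferase of the subunits Gatb, Gatc and Qrsl1. Gatb fell, with 55.5, 43.7, 38.3 and 41.8 CPM in control hearts 1 to 4 and 11.9, 15.4, 14.6 and 26.9 CPM in YY1 KO hearts 1 to 4 (-1.38 ± 0.24, adjusted p = 0.00255), and no knockout reached the lowest control. Qrsl1 (0.048 ± 0.10), Gatc (-0.031 ± 0.10) and Mtfmt (0.069 ± 0.14), which formylates the initiator tRNA, did not pass.

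The tRNA exporter gene Xpot stood at 63.1, 64.4, 67.2 and 64.5 CPM in control hearts 1 to 4 and 124, 106, 120.1 and 109.8 CPM in YY1 KO hearts 1 to 4 (log2 fold change 0.83 ± 0.078, edgeR adjusted p = 0.000249), with no overlap. Of the proofreading genes in the same list, Dtd2 (-1.12 ± 0.26, adjusted p = 0.00894) and Dtd1 (-0.41 ± 0.12, 0.0283), which remove D-amino acids from tRNA, fell. The Dtd1 call was lost without control 1 or 2 or YY1 KO 1, 2 or 4 (highest adjusted p = 0.0712). Prorsd1, related to the editing domain of prolyl enzymes, also fell (-0.64 ± 0.12, 0.00331). Ankrd16, which binds alanyl-tRNA synthetase, rose (0.45 ± 0.13, 0.0217), and Aarsd1 did not pass (0.18 ± 0.14). Without control 2, 3 or 4, Xpot was the 1 gene of this list called higher.

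In the list of eIF2alpha kinases and ATF4 targets 9 of 16 measured genes rose, 0 fell and 7 did not pass. Over all genes tested 21.6% were called higher and 17.3% lower. The 0 compares with 0 at an unadjusted p under 0.05 and 0 by DESeq2. Asns, which makes asparagine, had the largest increase, with 2.75, 3.56, 8.53 and 6.32 CPM in control hearts 1 to 4 and 69.7, 44.8, 61.3 and 70.8 CPM in YY1 KO hearts 1 to 4 (3.53 ± 0.33, edgeR adjusted p = 0.000246). Atf5 and the pseudokinase gene Trib3 were at 1.90 ± 0.13 (adjusted p = 0.000109) and 3.43 ± 0.27 (adjusted p = 0.000172). Atf5 overlaps genes of the other strand, and its counts irrespective of strand were 0.808 times those of its own strand. Atf4 itself was at 0.51 ± 0.14 (adjusted p = 0.0218), with YY1 KO 4 below control 4, and its call was lost without control 2 or YY1 KO 1, 2 or 3 (highest adjusted p = 0.0667). Atf4 and the 4 kinase genes are named after their values were seen, and the kinase genes did not pass (Eif2ak1 0.016, Eif2ak2 -0.20, Eif2ak3 0.21 and Eif2ak4 -0.28). Of 13 amino acid transporter genes tested 6 rose and 0 fell by edgeR, as at an unadjusted p under 0.05 and by DESeq2. Slc6a9, a glycine transporter, was at 1.29 ± 0.16 (adjusted p = 0.000707), and Slc7a5 and Slc3a2, the subunits of a carrier of large neutral amino acids, were at 2.07 ± 0.32 (0.00155) and 0.66 ± 0.13 (0.00417).

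In the lists of translation factors the calls were decreases, beside 17.3% of all genes tested called lower and 21.6% higher. These lists are short, and whether they differ from those shares was not tested. Of the 6 cytosolic elongation factor genes 4 fell, Eef1g (-0.58 ± 0.14, edgeR adjusted p = 0.0131), Eef1d (-0.38 ± 0.097, 0.014), Eef1b2 (-0.34 ± 0.098, 0.0236) and the muscle isoform Eef1a2 (-0.41 ± 0.13, 0.0302). Eef1a1 (0.29 ± 0.18) and Eef2 (0.24 ± 0.11) did not pass, and without YY1 KO 1, 2 or 3 the count of decreases was 2. Of 10 mitochondrial translation factor genes 4 fell and 0 rose by edgeR (6 and 0 at an unadjusted p under 0.05 and by DESeq2). Mrrf, for ribosome recycling, was at -0.88 ± 0.15 (adjusted p = 0.00216), Tufm, the factor that brings charged tRNA to the mitochondrial ribosome, at -0.84 ± 0.15 (0.00259), and the release factor gene Mtrf1l at -0.73 ± 0.16 (0.00645). Mrrf overlaps genes of the other strand, which held 14.95% of its stranded reads. Its counts irrespective of strand were 0.845 times those of its own strand.

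Of 16 measured genes of tRNA processing and modification 2 rose and 2 fell, beside 21.6% and 17.3% of all genes tested. Mto1, which modifies the wobble uridine of mitochondrial tRNAs, fell (-0.95 ± 0.12, edgeR adjusted p = 0.00062), as did Hsd17b10, a subunit of mitochondrial RNase P (-1.82 ± 0.31, 0.00209). Nsun3, which methylates mitochondrial methionine tRNA, rose (0.87 ± 0.14, 0.00181), and without control 2 or 4 it was the 1 gene of this list called higher. In the selenocysteine list, which uses serine joined to tRNA by Sars, Pstk (0.72 ± 0.15, 0.0057) and Eefsec (0.59 ± 0.15, 0.014) rose. Sephs2, for the selenium donor, fell (-0.59 ± 0.14, 0.0112), and Sepsecs (0.33 ± 0.13), Sephs1 (-0.22 ± 0.12) and Secisbp2 (-0.040 ± 0.12) did not pass.

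**Figure D4:**
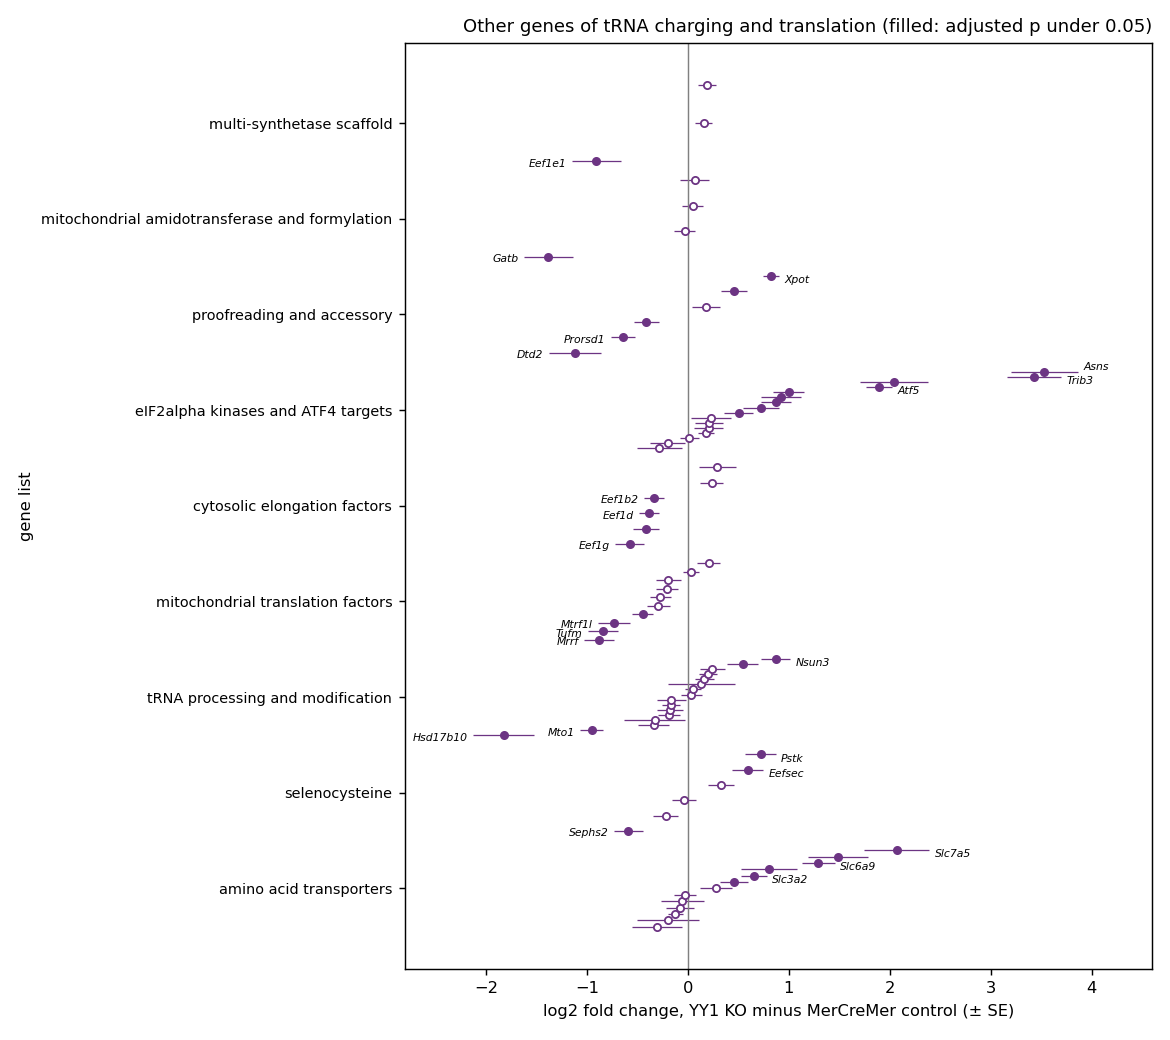
Log2 fold change (YY1 KO minus control, horizontal axis, ± SE) of 80 genes tested in the 9 lists around tRNA charging, 1 point per gene, filled where the edgeR adjusted p was under 0.05. Asns, Trib3 and Slc7a5 lie farthest right, and Hsd17b10 and Gatb farthest left.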

How the data were processed

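Trizol RNA of frozen hearts was sequenced, per the labels. Each deposited table holds 1 mouse's unnormalized counts by gene symbol. The submitters' processing notes name Trimmomatic, STAR and mm10, and the annotation used is not given in the sources used here. Counts irrespective of strand were used. Reads not assigned to a gene (33.0 to 38.9%) were left out. Genes with at least 10 reads (0.648 CPM) in 4 libraries were kept, leaving 13506. Genotypes were compared with edgeR 4.0.16 (TMM, robust quasi-likelihood F test, Benjamini-Hochberg over all genes, threshold 0.05). CPM used TMM-scaled library sizes. The test was checked on simulated counts.

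Members and lists were chosen with earlier results of these data known. Per-heart values are given for Tarsl2, the 8 members with the largest fold change in each direction and pairs called in opposite directions. Outside the family, each list of at most 6 genes is named whole, and of longer lists the 3 genes of smallest p. Further members' hearts are given where a sentence compares them. Alternatives were RLE or no scaling, DESeq2 1.42.0, limma-voom 3.58.1, no filter, stranded counts (0.498 to 5.41% of a member's stranded reads were on the opposite strand), a block for the replicate number, a term for Xist against Y-linked reads, each heart left out, Tarsl2 as mitochondrial, and coding length. Fits within hearts with Xist or with Y-linked reads, and an interaction, were chosen after seeing the data. One of the 38 genes found by symbol is not reported here. Protein features were planned and are not analysed here. Positions are from GENCODE M21 (mm10). Scripts ran in R 4.3.3 and Python 3.11.15, with plots from matplotlib 3.10.9. Replicates were separate mice, and counts of any pair in a group differed beyond sampling noise (chi-square over its degrees of freedom, 14.6 to 97.7).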

Additional observations from a re-analysis of the deposited data

Results flagged for a closer look

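Within the 4 hearts of a group, 4 values stood apart from the rest by Dixon's criterion at the 95% level (gap to the nearest heart over the range), out of 150 gene and group combinations examined, where chance gives about 1 in 20. Cars2 was at 35.7 CPM in YY1 KO 2, against 43.4 to 44.8 CPM in the other knockouts. Fars2 was at 43.3 CPM in YY1 KO 1, against 51.7 to 52.6 CPM. Hars2 was at 38.7 CPM in YY1 KO 4, against 31.1 to 32.0 CPM. The elongation factor gene Eef1a2 was at 1417 CPM in YY1 KO 4, against 1209 to 1244 CPM.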

How the results depend on the processing

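Counts of called members stayed within 1.5 times of the values above except as follows, and for each the cause was not tested. For the lists outside the family, 293 of 324 counts did so and 31 moved further. With the replicate block, 1 mitochondrial member was higher and 1 cytosolic member lower. The replicate numbers do not pair the hearts (correlations of deviations between same-numbered hearts -0.46 to 0.34). 1 cytosolic member, Farsb, was lower with DESeq2 and with the term for Xist against Y-linked reads. Leaving out 1 heart gave 0 to 1 cytosolic members lower and 1 to 3 mitochondrial members higher. Within the 4 hearts with Xist reads (2 against 2), edgeR called 0 of 13671 genes (3451 at an unadjusted p under 0.05), so all counts were 0, with 17 members at an unadjusted p under 0.05. The median log2 fold change there was 0.55 for cytosolic and 0.038 for mitochondrial members. Within the 4 hearts with Y-linked reads, where 24.5% of genes were called, 10 cytosolic members were higher and 2 lower, and 1 mitochondrial member was higher and 3 lower, with a mitochondrial median of 0.015. Without YY1 KO 4 that median was 0.044, against 0.14 with all hearts. Without scaling the cytosolic median was 0.53, while that of all genes moved from 0.013 to 0.073. Coding length, which is shorter than exon length, gave medians of 31.5 and 14.6 CPM per kilobase. Of 684 values of members and Yy1 over all alternatives, 584 kept their side of the threshold or moved by under 1 SD, 76 lost a call, 14 gained one, 10 moved further and 0 called values changed sign. Tars2 also lost its call with RLE scaling, DESeq2, no filter, stranded counts and the replicate block, and DESeq2 called 1 cytosolic elongation factor gene higher. Depth limits Wars2 most, with 41 to 163 reads in each heart.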
